A study of Mus musculus with 7 samples.

Results

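The 10 genes described here code for fibroblast growth factor (FGF) ligands, their receptors and close partners of both. They were the rows of these symbols among the 27998 genes of a single-cell RNA-seq count matrix: the ligands Fgf1, Fgf2, Fgf7 and Fgf10, the ligand carrier Fgfbp1, the receptors Fgfr1, Fgfr2 and Fgfr3, and the feedback inhibitors Spry1 and Spry4. The matrix held 13684 cells from the abdominal mammary glands of 7 female mice. Young virgin mice (3 to 4 months, n = 3) and aged virgin mice (13 to 14 months, n = 4) were compared. All were of a mixed FVB, 129 and C57BL/6J background, carried no engineered allele in the labels, and received no treatment. Their lymph nodes had been removed and they were taken in diestrus. Each mouse gave a single library, named here Young A to C and Aged A to D.

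FGFs are secreted signals that bind receptor tyrosine kinases at the cell surface, with heparan sulfate chains of proteoglycans as an obligate partner. An activated receptor passes the signal through adaptor proteins to RAS and the MAP kinases, and the pathway switches on its own inhibitors, among them the Sprouty proteins. In the mammary gland, Fgf10 from the mesenchyme and Fgfr2 in the epithelium are known for their need in bud formation and duct branching, and Fgf2 is a common supplement of mammary organoid cultures. Fgf7 and Fgf10 bind an epithelial splice form of Fgfr2, and reads from the 3′ end of transcripts cannot separate receptor splice forms.

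Values are counts of unique molecular identifiers (UMIs, each marking a captured RNA molecule), summed over the cells of a mouse and type and given per 1000000 UMIs of that sum (CPM). The 13 cell types were those of the study's own annotation: luminal hormone-sensing (HS), luminal alveolar (AV), luminal HS-AV, myoepithelial, fibroblast, vascular and lymphatic endothelial, pericyte and immune cells. Of 43 marker genes checked, 40 were highest in their own type, and the exceptions Esr1, Pgr and Prlr were highest in HS-AV rather than HS cells. Libraries held 1264 to 2865 cells and 6652599 to 16999625 UMIs, and 101 barcodes occurred in more than 1 library. The barcodes of young and aged libraries were written in different formats, and the labels name no batch, so a batch that went with age cannot be told apart from it. Aged glands gave few fibroblasts (15 to 121 cells a mouse, against 184 to 1034 in young mice).

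The members differed widely in how much RNA was counted. Fgfr1 had 7733 UMIs in all cells, Fgfr2 2623, Spry1 1633, Fgf2 699, Fgfr3 530, Spry4 527, Fgf7 362, Fgf10 199, Fgf1 169 and Fgfbp1 67. The ligands and the carrier therefore rest on few molecules. UMI counts follow transcript number and capture, so levels are compared below for the same gene between cell types and not between genes.

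The stretches just before the start of the transcript are shown for Fgf7 and Fgf10, a pair of ligands counted mainly in fibroblasts, and for Fgfr2, the receptor they are known to bind, counted mainly in HS cells. They are the 250 bases upstream of the RefSeq start on GRCm38.p6, read 5′ to 3′ on the gene's strand: chr2:126034408-126034657 (+) for Fgf7, chr13:118714449-118714698 (+) for Fgf10 and chr7:130266809-130267058 (-) for Fgfr2. Capitals mark a GC box.
Fgf7: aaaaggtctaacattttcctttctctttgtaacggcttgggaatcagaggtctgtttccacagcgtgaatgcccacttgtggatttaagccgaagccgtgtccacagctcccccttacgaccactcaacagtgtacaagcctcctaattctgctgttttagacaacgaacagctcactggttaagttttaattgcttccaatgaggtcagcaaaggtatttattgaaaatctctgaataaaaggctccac
Fgf10: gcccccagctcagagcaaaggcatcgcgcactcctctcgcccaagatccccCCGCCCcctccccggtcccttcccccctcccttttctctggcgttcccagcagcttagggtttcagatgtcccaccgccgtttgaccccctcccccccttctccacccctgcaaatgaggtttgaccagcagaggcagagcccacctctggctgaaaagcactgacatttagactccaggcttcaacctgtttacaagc
Fgfr2: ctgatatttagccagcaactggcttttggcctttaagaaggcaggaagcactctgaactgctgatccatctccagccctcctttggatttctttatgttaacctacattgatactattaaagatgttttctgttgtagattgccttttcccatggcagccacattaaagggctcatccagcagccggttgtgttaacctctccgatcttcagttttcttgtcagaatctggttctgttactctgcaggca

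The Fgf7 window was 43.6% G or C with 6 CpG dinucleotides, and that of Fgfr2 44% with 2, against medians of 52.4% and 6 over 32851 such windows. The Fgf10 window was richer, at 61.2% and 8 CpG. A TATA box (TATAAA), a GC box (GGGCGG) and an AP-1 element (TGANTCA) were searched on both strands, and no match of one overlaps another in these 3 windows. The only match was the GC box of Fgf10, on the reverse strand. Of the members 7 had such a window, and Fgf1, Fgfr1 and Spry4 had none to search. The GC box occurred in 32.7% of all windows and in those of 4 of these 7 members, Fgf2, Fgf10, Fgfr3 and Spry1. The TATA box occurred in 12.4% of all windows and the AP-1 element in 6.75%. In the same annotation Fgf2 lies at chr3:37348477-37410106 (+), Fgf7 at chr2:126034658-126091185 (+), Fgf10 at chr13:118714699-118792573 (+), Fgfr1 at chr8:25518759-25575718 (+), Fgfr2 at chr7:130162451-130266808 (-), Fgfr3 at chr5:33721724-33737068 (+), Spry1 at chr3:37639947-37644599 (+) and Fgfbp1 at chr5:43978858-43981828 (-). The 3′ end of Fgf2 overlaps Nudt6 on the opposite strand (chr3:37404910-37420211), and whether counting used strand is not given in the sources used here.

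Most ligands were fibroblast genes in these glands, and Fgf1 was not. Of all UMIs in the data set, fibroblasts held 93.9% of those of Fgf7, 92.0% of Fgf10 and 74.5% of Fgf2, whereas Fgf1 was highest in HS-AV and myoepithelial cells.

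Fgf7, the keratinocyte growth factor, was at 37.4, 36.9 and 33.2 CPM in the fibroblasts of Young A, B and C and at 51.7, 23.0, 25.3 and 73.1 CPM in those of Aged A, B, C and D. The mean was 40.1 ± 17.3 CPM (SD, n = 7), and in every mouse fibroblasts stood above each of the other 5 types with at least 10 cells in all mice, namely AV, HS, myoepithelial, pericyte and vascular endothelial cells. The difference from vascular endothelial cells was 5.18 ± 0.60 on the log2(CPM + 1) scale (exact sign-flip permutation test over mice, two-sided, p = 0.0156, the smallest that 7 mice can give). A Fgf7 UMI was found in 14.5% of fibroblasts (median 4414 UMIs per cell) and in 0.0468% of HS cells (median 7277), a type that should lack this ligand.

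Fgf10, the mesenchymal ligand of branching, was at 19.5, 11.5 and 22.2 CPM in young and 8.62, 28.8, 0 and 9.14 CPM in aged fibroblasts. Aged C was at 0 with 15 cells, which allows up to 38.0 CPM, and the other mice all had the gene. The mean of 14.2 ± 9.75 CPM (SD, n = 7) exceeded that of the next type in 6 of 7 mice (exact permutation p = 0.0312). No Fgf10 UMI was seen in 1670 myoepithelial cells, which allows up to 0.377 CPM (3 counts over all these cells, counting error only).

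Fgf2, a basic FGF without a signal peptide, had 2 main sources. Fibroblasts were at 46.8, 44.9 and 66.5 CPM in young mice and 39.6, 5.75, 12.7 and 27.4 CPM in aged mice (mean 34.8 ± 21.1, n = 7). Myoepithelial cells followed at 15.4 ± 7.13 CPM, and fibroblasts were higher in 5 of 7 mice (exact permutation p = 0.203), so the order of these types was not resolved. Both were far above AV cells. The myoepithelial level exceeded that of AV cells by 3.07 ± 1.56 (log2(CPM + 1), p = 0.0156, exact permutation test). A Fgf2 UMI was seen in 19.7% of fibroblasts but in 0.311% of AV and 0.281% of HS cells.

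Fgf1, the acidic FGF, was spread thinly. Its highest mean, 34.6 ± 40.9 CPM in HS-AV cells (n = 6), came from 4 to 6 cells in each of the 3 aged mice that had this type, where for example Aged A had 110 CPM from 3 UMIs. Myoepithelial cells were next at 13.5 ± 18.0 CPM, with 51.9 CPM in Young C, 19.7 in Young B, and 1.54 to 7.35 in the other mice. HS cells were at 4.20 ± 2.99 CPM, and myoepithelial cells were above them in only 4 of 7 mice (exact permutation p = 0.281).

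Fgfbp1, a secreted carrier that frees FGFs from the matrix, had 85.1% of its UMIs in AV cells, by far the largest pool of RNA. Its mean there was 2.06 ± 3.17 CPM, against 0.908 in HS-AV cells, which rests on 4 UMIs of a single mouse. Its level there was 1.15, 0 and 9.09 CPM in the young mice and 1.15, 1.89, 0.136 and 0.967 CPM in the aged mice. AV cells stood above HS cells in 5 of 7 mice (exact permutation p = 0.0938), and at 67 UMIs in all no firmer order could be had.

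Each of the 3 receptors had its highest level in different cells. For Fgfr1 these were fibroblasts, with Ma macrophages and myoepithelial cells next, for Fgfr2 the HS-AV and HS cells, and for Fgfr3 pericytes, vascular endothelium and myoepithelium, whose order was not resolved.

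Fgfr1 was at 146, 237 and 293 CPM in young and 291, 201, 266 and 302 CPM in aged fibroblasts (mean 248 ± 57.4, n = 7). Myoepithelial cells had 177 ± 45.2 CPM, and Ma macrophages 178 ± 11.5 CPM in the 3 young mice, at 167 to 190 CPM, the aged mice having too few of these cells. Then came AV cells at 91.8 ± 55.9, pericytes at 54.2 ± 26.6, HS cells at 53.3 ± 15.3 and vascular endothelium at 22.5 ± 7.87 CPM. Fibroblasts exceeded myoepithelial cells in 6 of 7 mice (exact permutation p = 0.0312) and vascular endothelium in every mouse, by 3.44 ± 0.50 (log2(CPM + 1)). Myoepithelial cells exceeded HS cells in every mouse, by 1.71 ± 0.37. The spreads of AV, pericyte and HS cells overlapped. Fibroblast markers summed to 440 to 1192 CPM in the Ma macrophages of young mice. Without cells holding a fibroblast marker UMI, Fgfr1 in these macrophages was at 156, 114 and 148 CPM in Young A, B and C. The part of fibroblast RNA in their rank was not tested.

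Fgfr2 was a gene of HS cells, which held 70.4% of its UMIs. It was at 117, 96.0 and 137 CPM in the young and 126, 88.1, 114 and 101 CPM in the aged mice (mean 111 ± 17.4, n = 7). HS-AV cells were alike at 122 ± 69.9 CPM (n = 6), with a wide spread. HS cells were above AV cells in every mouse by 3.31 ± 0.72 on the log2(CPM + 1) scale, and above myoepithelial cells, the next of the 6 types, in 7 of 7 (exact permutation p = 0.0156). A Fgfr2 UMI was present in 53.3% of HS and 43.6% of HS-AV cells but in 4.96% of AV cells (median 6632 UMIs per cell). With every cell thinned to 2000 UMIs these shares were 21.2%, 21.2% and 1.45%. Among 2138 HS cells, 359 held UMIs of both Fgfr1 and Fgfr2.

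Fgfr3 was at 28.6, 28.3 and 18.3 CPM in young and 0, 10.6, 11.3 and 34.3 CPM in aged pericytes. Vascular endothelial cells had 12.9 ± 5.13 and myoepithelial cells 11.5 ± 7.29 CPM. Pericytes were above vascular endothelium in 5 of 7 mice (exact permutation p = 0.953), and neighbours in this order did not differ beyond their spread. Fgfr4, the receptor outside the chosen set, had only 10 UMIs in all, 9 of them in myoepithelial cells.

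Spry1 and Spry4, which code for inhibitors of signalling below receptor tyrosine kinases, were highest in vascular endothelium and pericytes. Spry1 was highest in vascular endothelium, at 115, 99.1 and 126 CPM in young and 69.9, 64.3, 48.1 and 45.1 CPM in aged mice (mean 81.1 ± 32.4). Pericytes followed at 52.2 ± 21.4 CPM, and endothelium was above them in 5 of 7 mice (exact permutation p = 0.0625). Spry4 had the reverse order, with 40.8 ± 23.6 CPM in pericytes and 25.2 ± 8.60 in vascular endothelium, which again was not resolved (5 of 7 mice, exact permutation p = 0.25). Against AV cells, however, vascular endothelium was higher in Spry4 in every mouse (AV minus endothelium, -2.51 ± 0.45). Vascular endothelium held 48.6% of all Spry1 and 45.2% of all Spry4 UMIs. The summed vascular endothelial markers were at 1285 to 1427 CPM in young and 564 to 918 CPM in aged pericytes. In vascular endothelium itself they were at 1676 to 1879 and 1433 to 1678 CPM. Their part in the pericyte levels of Spry1, Spry4 and Fgfr3 was not tested.

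**Figure D1:**
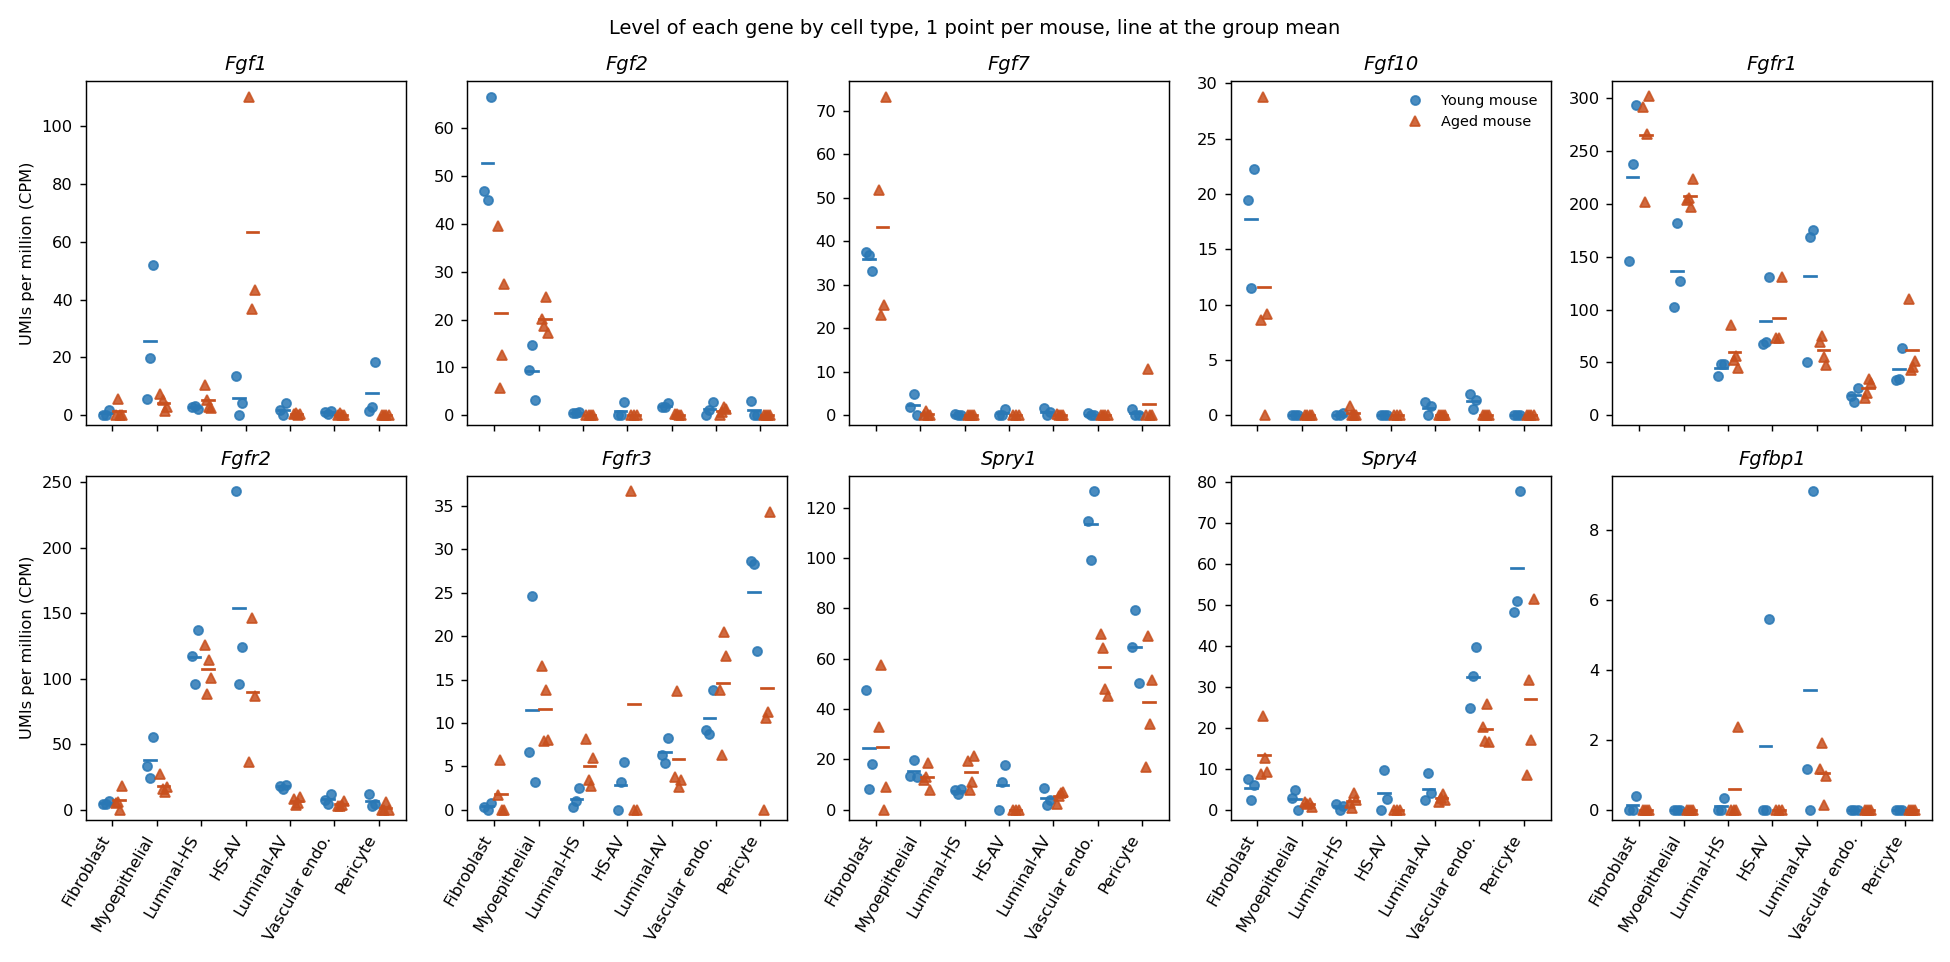
Level of each of the 10 genes (vertical axis, CPM) in 7 cell types (horizontal axis), with a point for each mouse, young as circles and aged as triangles, and a line at each group's mean. Fgf7 and Fgf10 stand out in fibroblasts, Fgfr2 in HS and HS-AV cells and Spry1 in vascular endothelium, whereas Fgfr1 is seen in all 7 types.

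Over the 15 pairs of the 6 well-sampled types, 55 of 150 tests of the members had all 7 mice on the same side, beside 26.7% of the 203145 such tests of all genes with at least 50 UMIs. They were 10 for Fgfr1, 9 for Fgfr2, 8 for Fgf2, 7 each for Spry1 and Spry4, 5 each for Fgf7 and Fgfr3, 4 for Fgf1 and 0 for Fgf10 and Fgfbp1. The types had been made by clustering on all genes, so these tests speak of repeatability between mice only.

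Genes with the most similar profile were sought by Pearson correlation of log2(CPM + 1) over 58 sums of a mouse and type from 12 types, among 11509 genes. The sums share libraries and depth, so r is a description. Fgf2 was most like Ptx3 (0.84), Tmem45a (0.83) and Pdpn (0.82), and Fgf7 like Lrrn4cl (0.87), En1 (0.87) and B3gnt9 (0.86). For Fgf10 they were Epha3, Tmem132c and Scg3 (0.85 each), none of them among those of Fgf2 or Fgf7. Fgf1 had Neat1 (0.70), Ift81 (0.67) and Dusp7 (0.65), the lowest values among the 9 members. Fgfr1 was nearest to Adk (0.77), Frmd6 (0.74) and C4b (0.73), Fgfr2 to Trp53inp1 (0.83), C130021I20Rik (0.82) and Prom2 (0.81), and Fgfr3 to Kifc3 (0.78), Ptpn14 (0.77) and Alpl (0.74). Spry1 was nearest to Mtmr11 (0.80), Bcr (0.78) and Ephb4 (0.78), and Spry4 to Snai1 (0.84), Nr2f2 (0.83) and Pdgfd (0.82). Fgfbp1 had fewer than 100 UMIs and was left out.

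Within fibroblasts, Fgf2 and Fgf10 had different levels in cells split by detected markers, clearest in Young A and Young C. Cells with a UMI of Pi16 or Dpp4, markers of adventitial fibroblasts, and none of Col15a1 were set beside cells with the reverse, Col15a1 being a marker of parenchymal fibroblasts. In the former, Fgf2 was at 80.2, 57.3 and 92.8 CPM in Young A, B and C and 68.4 in Aged A, and in the latter at 9.58 to 15.9 CPM in the same mice. The latter values rest on 7, 1, 9 and 1 Fgf2 UMIs. Fgf10 ran the other way in the young mice, at 9.74, 9.54 and 3.63 CPM in Pi16 or Dpp4 cells against 44.9, 21.9 and 78.8 CPM in Col15a1 cells. The Col15a1 value of Young B rests on 2 Fgf10 UMIs in 22 cells. In Aged A it was 13.0 against 0 CPM, but that mouse had only 14 Col15a1 cells.

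Fgf7 went the way of Fgf2 in these 4 mice, at 49.4, 33.4, 36.6 and 61.9 CPM against 25.3, 0, 18.1 and 15.9 CPM. The Col15a1 values rest on 18, 0, 17 and 1 Fgf7 UMIs. Fgfr1 was higher in Pi16 or Dpp4 cells in the 3 young mice (190, 253 and 337 against 91.3, 187 and 213 CPM) and lower in Aged A (238 against 350). Spry1 was at 9.74, 3.18, 7.92 and 16.3 CPM in Pi16 or Dpp4 cells and at 85.6, 21.9, 33.0 and 47.7 CPM in Col15a1 cells, higher in the latter in all 4 mice. The Col15a1 cells of Young B and Aged A held only 2 and 3 Spry1 UMIs. The other aged mice had 3 to 10 cells and 0 to 7 UMIs of a ligand in each subset. In Aged B, C and D, Fgf2 was at 25.2, 26.6 and 45.9 CPM in Pi16 or Dpp4 cells and at 0 in Col15a1 cells. Fgf7 was at 0, 26.6 and 107 against 66.6, 0 and 0 CPM, and Fgf10 at 0, 0 and 15.3 against 44.4, 0 and 0 CPM, so Aged B for Fgf7 and Aged D for Fgf10 ran opposite to the young mice. Of 1993 fibroblasts, 15 held both Fgf2 and Fgf10 (0.753%, where the product of their shares is 1.41%), 20 held both Fgf7 and Fgf10 (1.00% and 1.04%) and 76 held both Fgf2 and Fgf7 (3.81% and 2.86%). This split was chosen with results of these data known and was not tested.

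**Figure D2:**
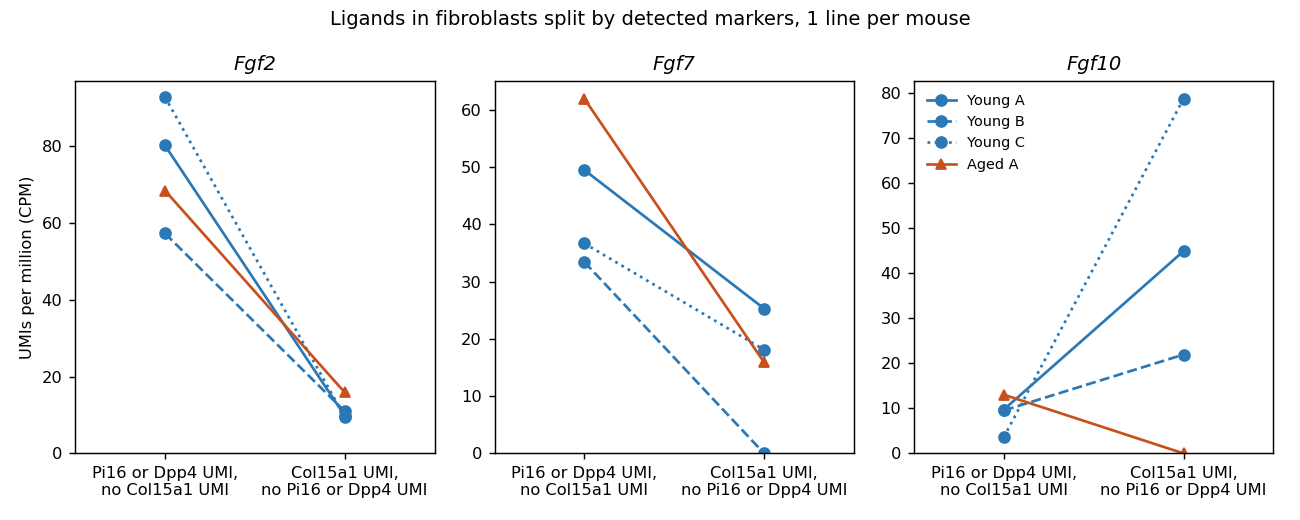
Levels (vertical axis, CPM) of Fgf2, Fgf7 and Fgf10 in fibroblasts with a UMI of Pi16 or Dpp4 and none of Col15a1, and in fibroblasts with the reverse, a line joining the subsets of each of 4 mice. Fgf2 and Fgf7 are higher in the former in all 4 mice, and Fgf10 is higher in the Col15a1 cells of the 3 young mice. Young B and Aged A had only 22 and 14 Col15a1 cells.

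The change with age was tested in each type on the sums by edgeR's quasi-likelihood test, with Benjamini-Hochberg adjustment over all genes tested in the type. Calls needed an adjusted p under 0.05 and a change of 1.5-fold or more. Of the 10 members, 6 had counts high enough for the test in AV cells, 5 in fibroblasts, 5 in myoepithelial cells, 4 in vascular endothelium, 3 in HS cells and 1 in pericytes, giving 24 tests with 6 calls. In HS-AV cells, Mb macrophages and T and B cells 0 passed. The share of all tested genes called was 27.6% in myoepithelial cells and 26.7% in vascular endothelium, against 6.16% in AV cells, 3.17% in fibroblasts, 6.26% in HS cells and 11.8% in pericytes. The calls of members were 3 in myoepithelial cells, 2 in vascular endothelium and 1 in AV cells, so most fell where calls were common.

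The scaling mattered for the balance of calls up and down, although no called member turned sign. The test's TMM scaling held the median of all genes near 0, while with library totals alone it moved to -0.41 (log2) in vascular endothelium, -0.25 in AV cells, -0.17 in pericytes, -0.11 in fibroblasts and -0.10 in HS and myoepithelial cells. The 3 calls up and 3 down then became 1 up and 5 down. In bulk sums of a type, fewer expressing cells and less RNA per cell cannot be told apart.

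In myoepithelial cells Fgfr1 was called higher with age and Fgfr2 lower, and the call of Fgf2 is a description. Fgf2 was at 9.44, 14.7 and 3.25 CPM in young and 20.2, 18.6, 24.6 and 17.1 CPM in aged mice, with no overlap. The log2 fold change was 1.23 ± 0.40 (SE, adjusted p = 0.0313, edgeR), and the young values rest on 10, 3 and 1 UMIs. The gene passed the low-count filter only through the aged mice, where it is higher, so this call is no support for a change. The call was lost without Young A (1.41, adjusted p = 0.127), Young C (1.03, 0.0868) or Aged C (1.17, 0.0524), by DESeq2 (1.25, 0.0977), and with library totals alone (1.13, 0.0551). The opposite-strand gene Nudt6 went the other way, from a mean of 7.54 to 2.56 CPM.

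Fgfr1 in myoepithelial cells was at 102, 182 and 127 CPM in young and 204, 205, 197 and 223 CPM in aged mice. All aged values lay above all young ones, in a band of 197 to 223. The log2 fold change was 0.79 ± 0.21 (adjusted p = 0.0117), and the call was lost without Young A (0.57, adjusted p = 0.101) and with totals thinned to equal size (0.46, 0.21). Fgfr2 fell from 33.0, 24.6 and 55.2 to 27.6, 15.5, 13.8 and 17.1 CPM (log2 -0.93 ± 0.33, adjusted p = 0.0435), Aged A lying inside the young range. That call was lost without Young A (-1.09, 0.0945), Young C (-0.60, 0.236), Aged B (-0.82, 0.0987), Aged C (-0.85, 0.0780) or Aged D (-0.94, 0.0604), by DESeq2 (-0.94, 0.0874) and without the low-count filter (-0.80, 0.0861).

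Other cells' markers also moved with age in the myoepithelial sums. The summed fibroblast markers were at 54.1 to 213 CPM in young and 4.56 to 27.6 in aged mice, and HS markers at 45.3 to 108 against 9.23 to 37.7 CPM, none of either list being at 0. The epithelial marker Epcam was at 371 to 484 CPM in young and 1459 to 2089 CPM in aged mice. Mitochondrial genes took 4.50 to 6.16% of UMIs in young and 3.12 to 3.94% in aged mice. After removal of cells with a fibroblast marker UMI, an alternative added after the data were seen, Fgf2 was at 10.3, 12.6 and 4.73 against 18.5, 18.5, 25.1 and 17.0 CPM (log2 1.04, adjusted p = 0.0837). Fgfr1 stayed called (0.69, adjusted p = 0.0441) and Fgfr2 did not (-0.73, adjusted p = 0.136). The part of the HS markers, Epcam and the mitochondrial share in these results was not tested.

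In vascular endothelium Spry1 fell and Fgfr1 rose. Spry1, whose levels by mouse are given above, went from 113 ± 13.7 to 56.8 ± 12.1 CPM with no overlap (log2 -0.64 ± 0.18, adjusted p = 0.0161). The call was lost without Young C (-0.55, adjusted p = 0.0563) or Aged D (-0.56, 0.0540), and without Aged C the change was under 1.5-fold (-0.57). It was larger with library totals alone (-1.0, adjusted p = 0.00106). Fgfr1 was at 18.0, 12.5 and 26.1 CPM in young and 15.9, 21.0, 33.9 and 30.5 CPM in aged mice, and the groups overlapped (log2 0.89 ± 0.31, adjusted p = 0.0459). It was not called with library totals alone (0.52, adjusted p = 0.178), nor without Young A (0.86, 0.133), Young B (0.65, 0.207), Aged C (0.75, 0.112) or Aged D (0.75, 0.136), by DESeq2 (0.88, 0.069) or after thinning (0.99, 0.0909).

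Spry4 in the same cells was at 24.8, 32.7 and 39.9 CPM in young and 20.1, 16.8, 25.8 and 16.5 CPM in aged mice (log2 -0.33 ± 0.25, adjusted p = 0.348), and was called with library totals alone (-0.69, 0.0362). Fgfr3 had a log2 fold change of 0.90 ± 0.39 (adjusted p = 0.100). Pericyte markers in the endothelial sums were at 98.6 to 346 CPM in young and 5.59 to 66.8 in aged mice, fibroblast markers at 44.1 to 159 and 11.7 to 33.9, and myoepithelial markers at 9.80 to 36.4 and 62.4 to 175. Adipocyte markers summed to 52.0 to 62.6 CPM in young mice and all 3 were at 0 in the aged mice, and mitochondrial genes took 3.10 to 3.17% against 2.35 to 2.53% of UMIs. Without cells holding a fibroblast marker UMI, Spry1 was at 110, 106 and 128 against 67.0, 64.2, 50.3 and 44.0 CPM and stayed called, as did Fgfr1 (0.97, adjusted p = 0.0352). The part of the pericyte, myoepithelial and adipocyte markers and of the mitochondrial share was not tested.

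In AV cells Fgf2 was at 1.73, 1.80 and 2.48 CPM in young and 0.165, 0.299, 0.136 and 0 CPM in aged mice. The counts were 3, 1 and 6 UMIs against 1, 3, 1 and 0. The gene passed the low-count filter only through the young mice, where it is higher, and not when any mouse was left out, so its call (log2 -3.22 ± 0.74, adjusted p = 0.0303, edgeR) is a description and no support for a change. Fibroblast markers summed to 32.4 to 184 CPM in young and 2.45 to 6.75 in aged AV cells, HS markers to 193 to 277 and 30.0 to 39.3. Of the AV cells, 10.6 to 28.5% in young and 1.65 to 4.30% in aged mice had a fibroblast marker UMI. Without them Fgf2 was at 1.61, 2.03 and 2.21 against 0.172, 0.305, 0.139 and 0 CPM, too low for the test. The part of the HS markers was not tested.

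Fgfr2 in AV cells was at 18.5, 16.2 and 18.6 CPM in young and 8.56, 3.89, 5.45 and 9.99 CPM in aged mice. The groups were apart, with means of 17.7 ± 1.35 and 6.97 ± 2.79, but the log2 difference of -1.11 ± 0.35 did not pass (adjusted p = 0.0916), except with library totals alone (-1.39, 0.0303). HS markers in these sums were at 193 to 277 CPM in young and 30.0 to 39.3 in aged mice. Their part in the Fgfr2 levels was not tested. Fgfr1 in these cells was at 50.8, 169 and 176 against 69.1, 75.0, 55.5 and 47.4 CPM (log2 -0.83 ± 0.36, adjusted p = 0.201), Young A lying with the aged mice, and was called without it (-1.24, adjusted p = 0.0136).

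In HS cells 0 of the 3 members tested were called by edgeR or by DESeq2, and 2 (Fgfr1 and Spry1) had an unadjusted edgeR p under 0.05. Fgfr2 had a log2 fold change of -0.03 ± 0.16, with means of 117 ± 20.6 and 107 ± 16.4 CPM. Fgfr1 was at 0.51 ± 0.20 (adjusted p = 0.149). Spry1 was at 7.65, 6.37 and 8.17 CPM in young and 19.5, 7.79, 10.9 and 21.3 CPM in aged mice, with Aged B inside the young range (log2 1.02 ± 0.34, adjusted p = 0.0992). It was called without Aged B (1.27, adjusted p = 0.0355).

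In fibroblasts 0 of the 5 members tested were called by edgeR or by DESeq2, and 0 had an unadjusted edgeR p under 0.05. The same held for Spry1 in pericytes, the only member tested there. Fgf2 was at 52.7 ± 12.0 CPM in young and 21.4 ± 15.2 in aged mice, but the aged counts were 23, 1, 1 and 3 UMIs, and the log2 fold change of -0.85 ± 0.40 missed (adjusted p = 0.259). Fgf7 was at 0.47 (adjusted p = 0.466), Fgf10 at -0.54 ± 0.54 (0.634) and Fgfr1 at 0.32 (0.590). Aged C and Aged D had 15 and 17 fibroblasts, and a p that misses the threshold does not show that the levels were alike.

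**Figure D3:**
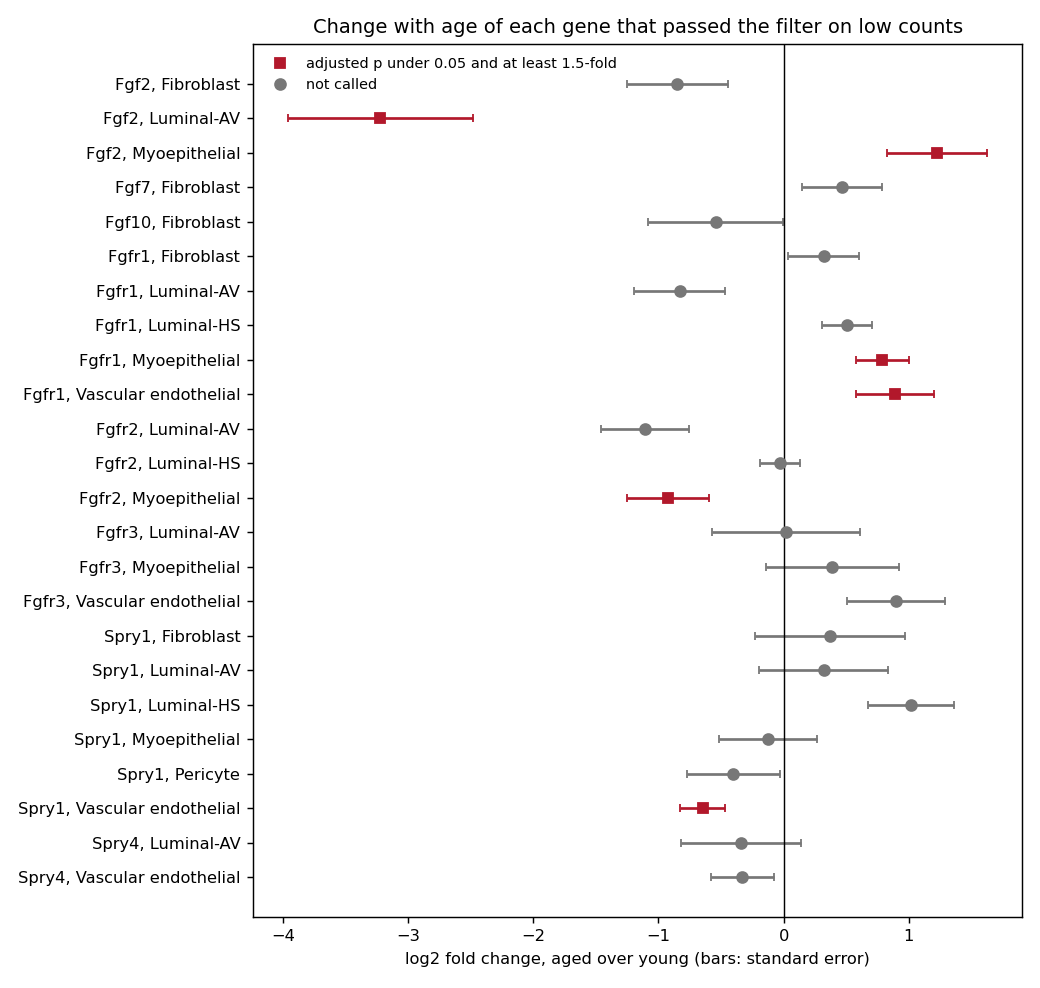
Log2 fold change of aged over young mice (points) with its standard error (bars) for each member in each cell type where it passed the low-count filter, called changes as squares and the others as circles. The 3 calls above 0 are Fgf2 and Fgfr1 in myoepithelial cells and Fgfr1 in vascular endothelium, and the 3 below 0 are Fgf2 in AV cells, Fgfr2 in myoepithelial cells and Spry1 in vascular endothelium.

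Whether the age change itself differed between types was tested for 9 members over the 15 pairs of types in a joint edgeR fit with the mouse as a block, adjusted over all genes. Of these, 6 differences were called, all for Fgf1, Fgf2, Fgfr1 or Spry1. Fgf2 changed more upward in myoepithelial than in AV cells by 4.21 ± 0.90 (log2, adjusted p = 0.0019, where 11.3% of all genes were called) and than in fibroblasts by 2.41 ± 0.60 (0.0143, 5.04% of genes). The difference from AV cells takes in the few AV UMIs given above, which passed the filter of that type only through the young mice. Both differences take in the myoepithelial sums, where Fgf2 passed the filter only through the aged mice. They are therefore descriptions and no support for a change. Fgfr1 differed by 1.56 ± 0.33 between myoepithelial and AV cells (0.0013) and by -1.51 ± 0.38 between AV cells and vascular endothelium (0.0059, 10.6% of genes). Fgf1, at 5.67, 19.7 and 51.9 CPM in young and 7.35, 5.17, 1.54 and 2.85 CPM in aged myoepithelial cells, changed more downward than in HS cells (-2.98 ± 0.78, 0.0119, 8.48% of genes). Its counts passed the low-count filter in no single type, so its age change was tested only in this joint fit. The difference of Fgf1 is therefore given as a description. Spry1 changed more upward in HS cells than in vascular endothelium, by 1.53 ± 0.51 (0.0492, 9.34% of genes).

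These differences leaned on single mice. Without Young C those of Fgf1 (-1.71, adjusted p = 0.306), Fgf2 against AV cells (3.76, 0.063), Fgf2 against fibroblasts (1.92, 0.14) and Fgfr1 between myoepithelial and AV cells (1.18, 0.0746) were lost. That of Fgf2 against fibroblasts was also lost without Young A (2.84, 0.054), Aged B (2.01, 0.0604) or Aged D (2.27, 0.0526), and that of Fgfr1 between AV cells and endothelium without Young B (-1.01, 0.157). The difference of Spry1 held without Aged B but was lost without any other mouse (1.23 to 1.64, adjusted p = 0.0694 to 0.18).

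The wider pathway was read from a list of 74 genes: the other ligands and receptors, heparan sulfate proteins and enzymes, signal relay, and feedback inhibitors with the transcription factors downstream. Over the 6 types 189 tests gave 36 calls in 25 genes, 24 higher and 12 lower with age, or 13 and 21 with library totals alone. By type they were 9 higher and 6 lower of 37 in myoepithelial cells, where 27.6% of all genes were called, and 7 and 5 of 29 in vascular endothelium (26.7%). AV cells had 2 and 1 of 43 (6.16%), HS cells 2 and 0 of 35 (6.26%), fibroblasts 2 and 0 of 32 (3.17%) and pericytes 2 and 0 of 13 (11.8%). Counts by role below add types with these unequal shares. The median log2 change of the list was 0.05 in fibroblasts (all genes 0.00), -0.02 in AV cells (0.02), 0.29 in HS cells (0.02), -0.08 in myoepithelial cells (0.01), 0.20 in pericytes (0.01) and -0.06 in vascular endothelium (-0.05).

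Of 36 calls 15 held without each mouse in turn: Gpc6 in AV cells, Gpc1, Sdc4, Sdc1, Mapk3, Dusp5, Dusp6, Map2k1, Grb2 and Etv5 in myoepithelial cells, and Sulf1, Sdc3, Sdc1, Hras and Dusp5 in vascular endothelium. With library totals alone 25 were kept and 0 turned direction. The call of Etv5 is a description only, as set out below.

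Of the other ligands 3 tests were possible, with 0 called by edgeR or DESeq2 and 1 at an unadjusted p under 0.05. Among them Fgf18, a ligand at 42.2 ± 15.1 CPM in fibroblasts, had a log2 fold change of -0.75 ± 0.40 there (adjusted p = 0.324). Of the other receptors and their partners 1 of 6 tests was called, higher (0 with library totals alone). The heparan sulfate group had 11 higher and 3 lower calls of 64 tests, or 8 and 4 with library totals alone. Syndecan-4 (Sdc4), a cell surface proteoglycan, rose in fibroblasts (1.25 ± 0.29, adjusted p = 0.0293), myoepithelial cells (1.40 ± 0.26, 0.00091) and pericytes (1.64, 0.0199). The fibroblast call was lost without Aged A, Aged D or any young mouse, and the pericyte call without Young A, Young C or Aged B. Myoepithelial markers in the fibroblast sums were at 12.5 to 37.0 CPM in young and 57.5 to 98.3 in aged mice. In the pericyte sums AV markers were at 318 to 481 against 526 to 2426 CPM, and vascular markers at 1285 to 1427 against 564 to 918 CPM. Their part in the Sdc4 calls was not tested. Glypican-1 (Gpc1) rose in myoepithelial (1.81) and HS cells (1.25), and Sdc2 in pericytes (1.84). In vascular endothelium Sulf1, an enzyme that trims heparan sulfate, rose by 2.17 and Sdc1 by 1.60, whereas Sdc3 fell by 2.07 on the log2 scale. In AV cells Gpc6 fell by 4.65 (adjusted p = 0.00126), and Hs6st1 (1.40) and the receptor partner Flrt3 (0.93) rose.

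The relay genes had 4 higher and 4 lower calls of 76 tests, or 2 and 11 with library totals alone, with Map2k1, a MAP kinase kinase, at 1.80 in myoepithelial cells, and Hras at -0.93 and Plcg1 at -0.78 in vascular endothelium. The feedback group had 8 higher and 5 lower of 40, or 3 and 6 with library totals alone. Spry2, the third Sprouty gene, was at 36.7, 63.4 and 66.3 CPM in young and 114, 167, 177 and 64.0 CPM in aged fibroblasts (log2 1.30 ± 0.32, adjusted p = 0.0448), with Aged D in the young range, and the call held only without Aged D. In myoepithelial cells it was at 19.8, 39.3 and 22.7 against 105, 47.2, 53.8 and 80.4 CPM, with no overlap (1.66 ± 0.35, 0.0024, lost without Young A), and it was called higher in vascular endothelium (0.89). The endothelial call was lost with library totals alone (0.53, adjusted p = 0.163) and without Young A, Young C, Aged C or Aged D.

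In the same myoepithelial cells, the transcription factors Etv4 and Etv5, which FGF signalling is known to induce, were called lower. Etv5 was at 17.0, 59.0 and 16.2 CPM in young and 4.59, 4.13, 7.69 and 6.28 CPM in aged mice (-2.09 ± 0.47, adjusted p = 0.0037). Etv4 was at 42.5, 34.4 and 9.74 against 6.43, 12.1, 12.3 and 6.28 CPM, where Young C overlapped the aged mice (-1.67 ± 0.41, 0.0062, lost without Young A). In myoepithelial cells both genes passed the low-count filter only through the young mice, where they are higher. Their calls are therefore descriptions and no support for a change. The phosphatase genes Dusp5 (-1.31) and Dusp6 (0.75) moved in opposite directions there, and in the reverse directions in vascular endothelium (0.86 and -0.69). Spred2 rose in myoepithelial cells (1.27), Spred3 in HS cells (1.30), and Dusp6 in myoepithelial cells was at 162 to 172 CPM in young and 193 to 311 in aged mice. Without cells holding a fibroblast marker UMI, Etv4 and Etv5 in myoepithelial cells and Sdc2 in pericytes no longer passed the filter. The calls of Sdc4 in pericytes, Hs6st1 and Flrt3 in AV cells, and Hs6st1 in vascular endothelium were tested in that setting and lost.

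**Figure D4:**
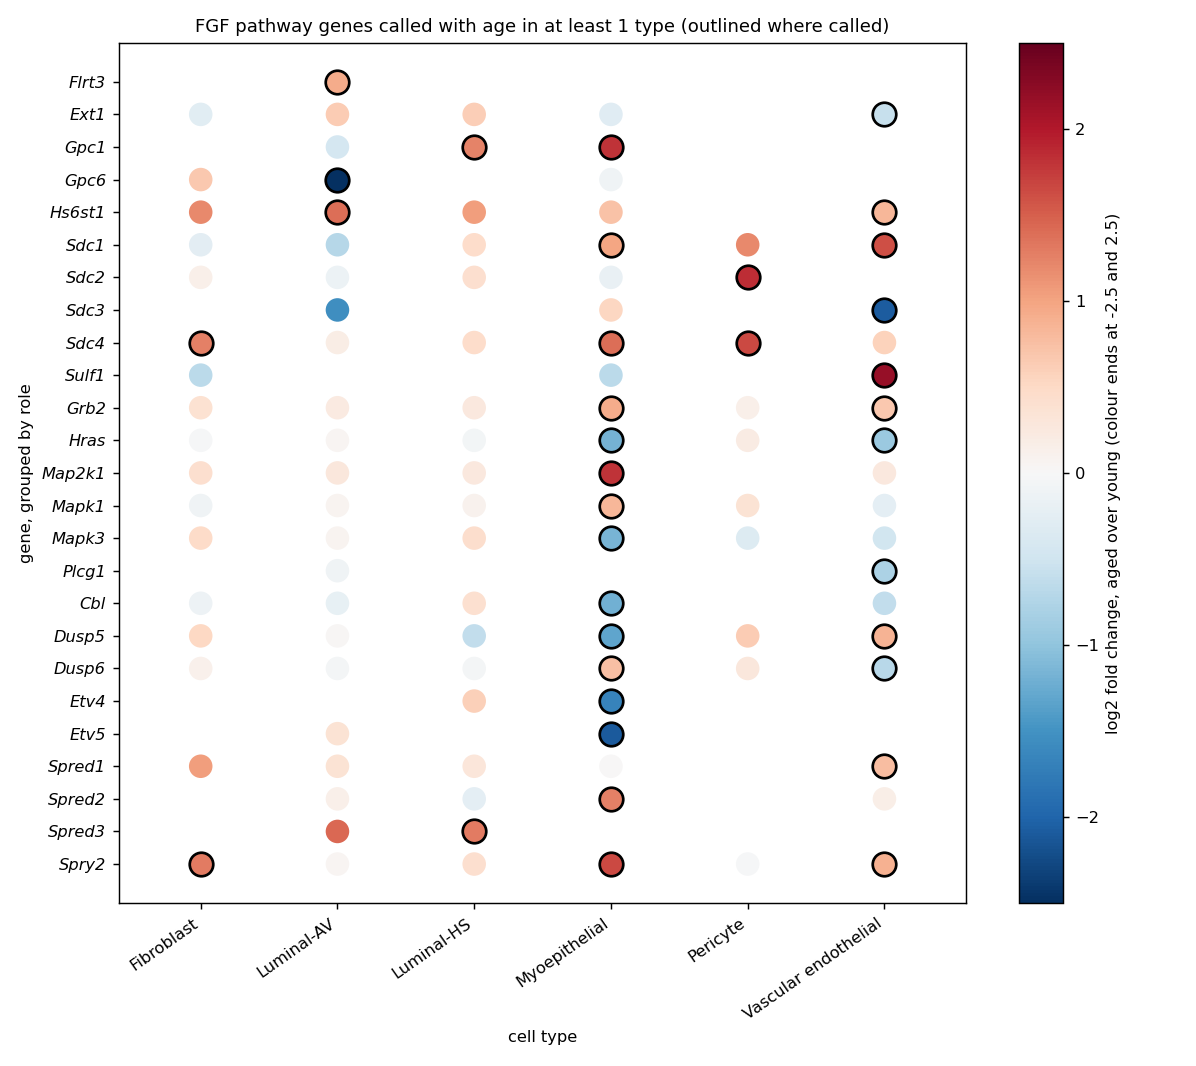
Log2 fold change of aged over young mice for genes of the FGF pathway list called in at least 1 cell type, by role of the gene and type, called changes marked. Sdc4 and Spry2 are called higher in 3 types each, and myoepithelial cells and vascular endothelium hold most calls.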

How the data were processed

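Dissociated mammary cells were run on the 10x Chromium 3′ v2 kit, 1 library per mouse. The authors deposited a matrix of UMI counts, not normalized, and a table naming the type of every cell. Per the labels and the submitters' processing notes, reads were aligned to mm10 with Cell Ranger 2.0, and the authors filtered cells by UMIs, genes and mitochondrial share. Doublets had been handled by the authors and no caller was run here. Counts were summed per mouse and type (at least 3 cells) and tested with edgeR 4.0.16 (filterByExpr, TMM, quasi-likelihood) in R 4.3.3. DESeq2 1.42.0, RLE factors, no filter, equal totals, a replicate block and each mouse left out were alternatives. A further pair, library totals alone and sums without cells holding a fibroblast marker UMI, were chosen after seeing the data. Types were compared within mice by an exact sign-flip test (scipy 1.17.1) on log2(CPM + 1) where every mouse had 10 cells. The main fit of each type and the main joint fit were tried on simulated data, and the alternatives were not. Shares after thinning used 2000 UMIs per cell. Intervals and floors (3 counts) cover counting error only, and depth was 6652599 to 16999625 UMIs per mouse.

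The members and lists were chosen with earlier results of these data known. Genes named beyond the members were the 3 most correlated with each member having at least 100 UMIs and, in each type, up to 8 called genes of the pathway list with the largest change. Fgf18, Fgfr4, Nudt6, Dusp6, Pi16, Dpp4 and Col15a1 were named after their values were seen. The labels name no batch, so p-values measure the spread between these mice.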

Additional observations from a re-analysis of the deposited data

Results flagged for a closer look

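Among 31 levels in the 4 aged mice tested for a lone sample by Dixon's criterion, which chance passes in about 1 in 20, 2 stood out. Fgfr1 in the pericytes of Aged A was at 109 CPM, where the other aged mice had 42.4 to 51.5 CPM. Fgfr3 in the AV cells of Aged B was at 13.7 CPM, against 2.59 to 3.78 CPM in the other aged mice.

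In all, 6 age changes differed between types by the joint test. They were Fgf1 in myoepithelial minus HS cells (-2.98), Fgf2 in myoepithelial minus AV cells (4.21) and minus fibroblasts (2.41), Fgfr1 in myoepithelial minus AV cells (1.56) and in AV cells minus vascular endothelium (-1.51), and Spry1 in HS cells minus vascular endothelium (1.53), all on the log2 scale. The values for Fgf1 and for Fgf2, against AV cells and against fibroblasts, are descriptions only, as said above.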

How the results depend on the processing

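The 3 higher and 3 lower calls of members with age became 1 and 2 by DESeq2, 5 and 3 without the low-count filter, 0 and 1 with totals thinned to equal size, and 2 and 1 without cells holding a fibroblast marker UMI. With library totals alone they were 1 and 5. Leaving out each mouse gave 0 to 5 higher and 0 to 3 lower. The 24 higher calls of the pathway list became 7 after thinning, 13 with library totals alone, and 11 to 23 without a mouse. Its 12 lower calls became 21 without the filter, 21 with library totals alone, and 8 to 12 without a mouse. Of the 24 signs, 9 were kept after thinning and 14 without cells holding a fibroblast marker UMI, because fewer members were tested, and 20 to 22 without a mouse. The letters A to C name different animals, and same-lettered mice did not deviate together (r = -0.28 to 0.11 over 18 pairs, 1 of them over 0.1). With the replicate block 0 members were called in either direction and 13 of the list were higher. The sign of Fgfr3 in AV cells turned with DESeq2 (-0.0031), RLE factors (-0.0014), the replicate block (-0.33), cells without a fibroblast marker UMI (-0.15), library totals alone (-0.22), and without a mouse (-0.82 to 0.26). Without a mouse the range also spanned 0 for Fgfr3 in myoepithelial cells (-0.057 to 0.97), Spry4 in AV cells (-0.73 to 0.034), Fgfr2 in HS cells (-0.13 to 0.12) and Spry1 in myoepithelial cells (-0.25 to 0.013). The cause of these moves was not tested. The 55 differences between types with an exact p = 0.0156 were 38 for shares of thinned cells. By adjusted p that setting gave 0 calls. Requiring 20 cells (5 mice) or leaving out a mouse also gave 0, fixed by the design, since the exact p cannot then go below 0.0625 or 0.0312. The tests at those smallest values were 63 and 57 to 63. The 6 differences of the age change became 1 to 8 without a mouse. Of the 27 most similar genes, 7 were the same by Spearman correlation and 6 in young mice alone. Few UMIs limit Fgf1, Fgf10 and Fgfbp1, and few aged fibroblasts limit every change there.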
